A study of Mus musculus with 4 samples.

Results

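DNA damage response and repair genes were examined in mouse zygotes, that is, fertilised eggs that have yet to divide. The set was 43 of the 55291 features in the deposited count table, taken by symbol. It holds genes of the p53 response, damage signalling, homologous recombination, end joining, excision repair and damage tolerance. Each gene was read in all 8 count columns.

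The series used 4 samples with 1 sample per group, each with 2 count columns called libraries 1 and 2 here. In the first experiment zygotes that received the H3.3 MO (MO injected) were set against their own control (MO control). In the second, zygotes that received H3.3 S31A (S31A injected) were set against a separate control (S31A control). H3.3 is a variant of histone H3 whose deposition does not depend on DNA replication. MO is not spelled out in the labels and usually stands for a morpholino, a synthetic antisense oligonucleotide; S31A in protein shorthand means alanine in place of serine. The treatment of the controls, the strain, the age of the females and the number of zygotes pooled per sample are unknown from the sources used here. The 2 libraries of a sample were not counted as replicates, so differences between groups have no replicate check and intervals cover counting error only.

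Library totals ran from 5661621 to 13233371 counts, and 11372 to 15156 features had at least 1 count. The H3.3 genes H3f3b and H3f3a had log2 ratios of -8.34 and -4.22 in the MO experiment, and of 0.66 and -0.12 in the S31A experiment. Of 15 egg and zygote markers, 14 reached 10 CPM (counts scaled to the size of the library and between samples) in at least 1 sample. Their summed level was 12279 to 20979 CPM. Of 16 cumulus and granulosa cell markers, 7 were at 0 in every library, among them Amh, Fshr and Foxl2. Of the same list, 2 reached 10 CPM in at least 1 sample. These were Cyp19a1, at 35.0 to 165 CPM in all 8 libraries, and Kitl, at 0 to 26.3 CPM. The summed level of these 16 was 59.3 and 75.6 CPM in the MO control, 114 and 68.9 in the MO injected, 35.1 and 90.2 in the S31A control, and 193 and 68.4 in the S31A injected sample. Cyp19a1 alone made up most of each sum. Sperm and testis markers summed to at most 6.74 CPM and blood and immune markers to at most 1.59 CPM. The part of these lists in the results below was not tested.

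As background, cells answer DNA damage in layers. Sensor kinases such as ATM and ATR detect breaks and stalled forks, and mediator proteins gather on the chromatin around them. The transcription factor p53 then switches on genes that halt the cell cycle or start cell death, while its ubiquitin ligase MDM2 keeps it low. Double-strand breaks are repaired either by copying an intact partner (homologous recombination) or by joining the ends directly (end joining). Base lesions, mismatches and crosslinks have pathways of their own. The zygote makes little new RNA, so its repair genes are present mostly as RNA stored by the mother. In bulk samples, less RNA per zygote and fewer zygotes holding it cannot be told apart.

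Promoter letters were read for these genes, since p53 and E2F factors are the textbook regulators of many of them. RefSeq windows of GRCm38.p6 were matched for 38 of the 43 genes, giving 44 windows of 250 bases before an annotated start. The p53 half-site, a motif of 10 letters given here by name, was found in 5 of the 44 windows (11.4%), against 7.13% of all 32851 windows. The E2F type letters TTTCCCGC stood in 5 windows (11.4%) against 0.895% of all windows, and TTTGGCGC stood in 0 windows against 0.417%. CCAAT stood in 20 windows (45.5%) against 33.9%. Both strands were searched. These shares describe letters only, since no binding was measured.

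A pair of p53 target genes and a pair of windows with E2F type letters are shown because each pair holds an abundant and a scarce gene with letters of the same type. Capitals mark the p53 half-sites in Mdm2 and Cdkn1a and the E2F type letters, on the opposite strand, in Brca2 and Chek2. The Mdm2 window is chr10:117710759-117711008 on the minus strand. The Cdkn1a window lies at the more upstream of its annotated starts, chr17:29090729-29090978 on the plus strand. Brca2 is at chr5:150522371-150522620 and Chek2 at chr5:110839733-110839982, both on the plus strand.
Mdm2: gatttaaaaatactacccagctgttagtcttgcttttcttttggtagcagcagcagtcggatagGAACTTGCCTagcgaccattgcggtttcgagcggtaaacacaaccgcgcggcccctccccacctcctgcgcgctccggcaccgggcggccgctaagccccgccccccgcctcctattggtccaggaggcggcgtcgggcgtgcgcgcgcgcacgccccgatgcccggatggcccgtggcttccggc
Cdkn1a: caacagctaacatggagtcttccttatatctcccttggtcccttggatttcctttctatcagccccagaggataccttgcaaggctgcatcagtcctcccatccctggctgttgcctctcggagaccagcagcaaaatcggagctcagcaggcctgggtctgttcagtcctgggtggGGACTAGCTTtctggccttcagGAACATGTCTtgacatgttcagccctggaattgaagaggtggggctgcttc
Brca2: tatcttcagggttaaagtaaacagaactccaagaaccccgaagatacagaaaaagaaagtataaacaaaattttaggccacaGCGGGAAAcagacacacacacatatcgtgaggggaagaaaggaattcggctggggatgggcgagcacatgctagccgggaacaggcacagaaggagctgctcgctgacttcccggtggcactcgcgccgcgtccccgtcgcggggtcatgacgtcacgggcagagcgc
Chek2: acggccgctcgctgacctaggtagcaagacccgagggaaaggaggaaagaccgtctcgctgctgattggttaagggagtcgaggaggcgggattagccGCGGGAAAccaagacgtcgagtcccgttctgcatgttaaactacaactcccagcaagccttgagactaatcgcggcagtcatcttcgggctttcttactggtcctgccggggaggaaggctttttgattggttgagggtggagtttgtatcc
Mdm2 and Brca2 RNA was found in all 8 libraries, whereas Cdkn1a and Chek2 were at 0 in 5 and 4 of them.

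Repair RNA levels were uneven across the 43 genes. Of these, 30 reached 10 CPM in at least 1 sample, 23 reached it in all 4 samples, and 13 stayed below it throughout. Counts were present in all 8 libraries for 31 genes and in none for 1, Bbc3. Together the 43 genes took 0.191% to 0.248% of the counts of a library. To compare genes, levels were divided by the deposited gene length, which sums all annotated exon bases and so lowers genes with long rare isoforms. Reads over exon junctions can also be lost in alignment, which would lower genes of many short exons most. Levels compared between genes, here and by role below, were not corrected for this. On this scale, as the mean of the 4 samples in CPM per kilobase, the order was led by Mdm2 (58.8), Rnf168 (56.8) and Msh6 (49.4). After these came Rad50 (21.1), Lig4 (19.3) and Trp53 (18.7). Over the samples the top 3 genes did not overlap Rad50, since the lowest of the top 3 stood at 34.3 and Rad50 never exceeded 29.1. Single libraries were not compared on this scale. Within the top 3, and among Rad50, Lig4, Trp53 and Brca1, neighbours overlapped between samples.

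**Figure D1:**
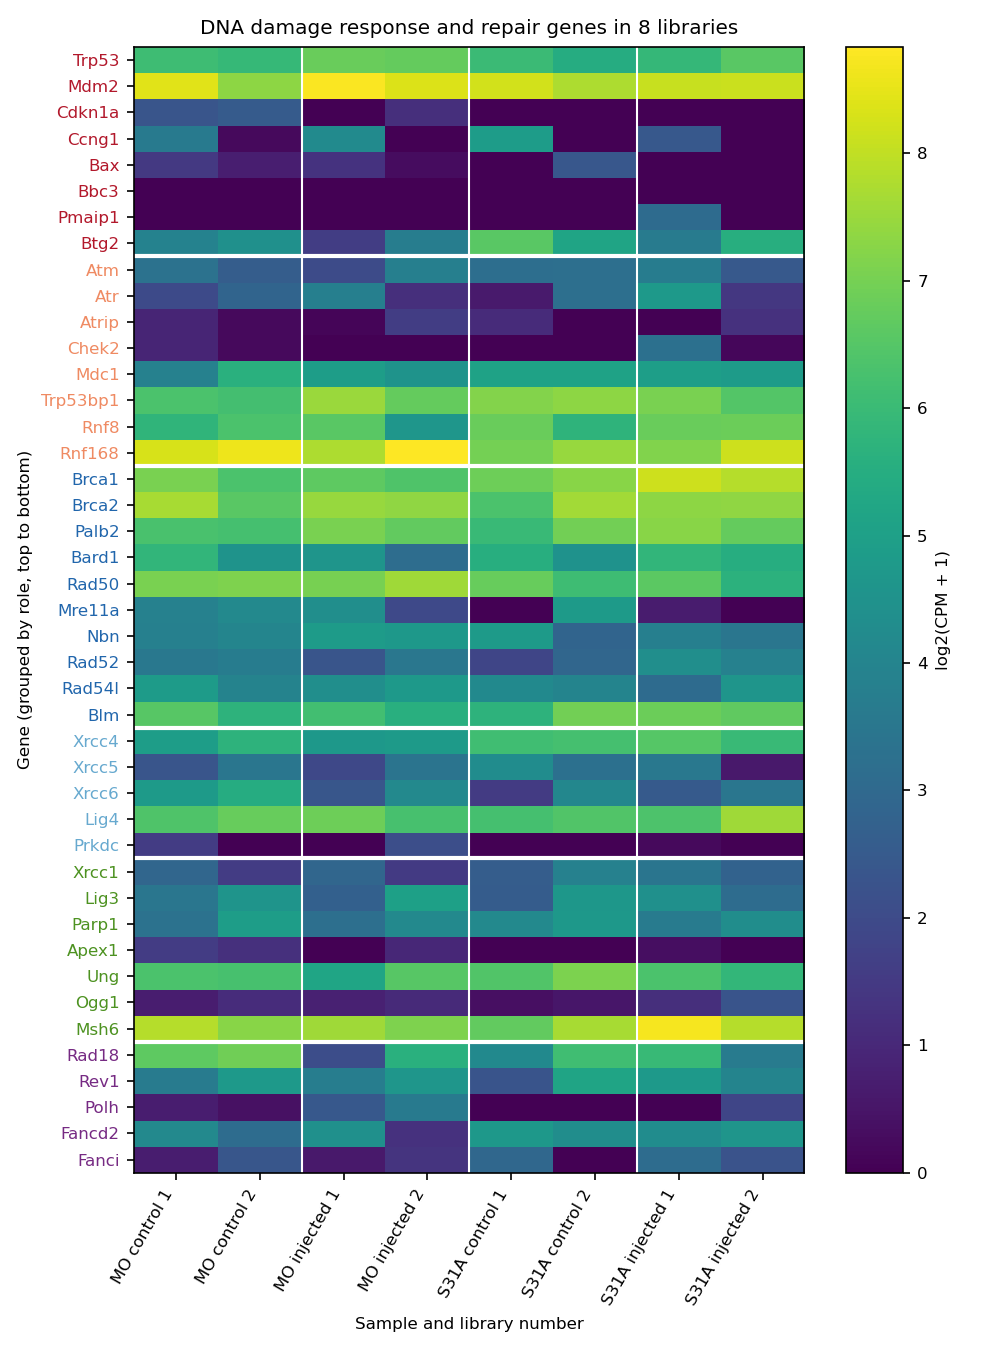
Heat map of log2(CPM + 1) for the 43 genes (rows, coloured and grouped by role) in the 8 libraries (columns). Mdm2, Rnf168, Msh6, Brca1 and Brca2 were bright in every library, while Bbc3 was at 0 in all 8 and Cdkn1a at 0 in 5.

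**Figure D2:**
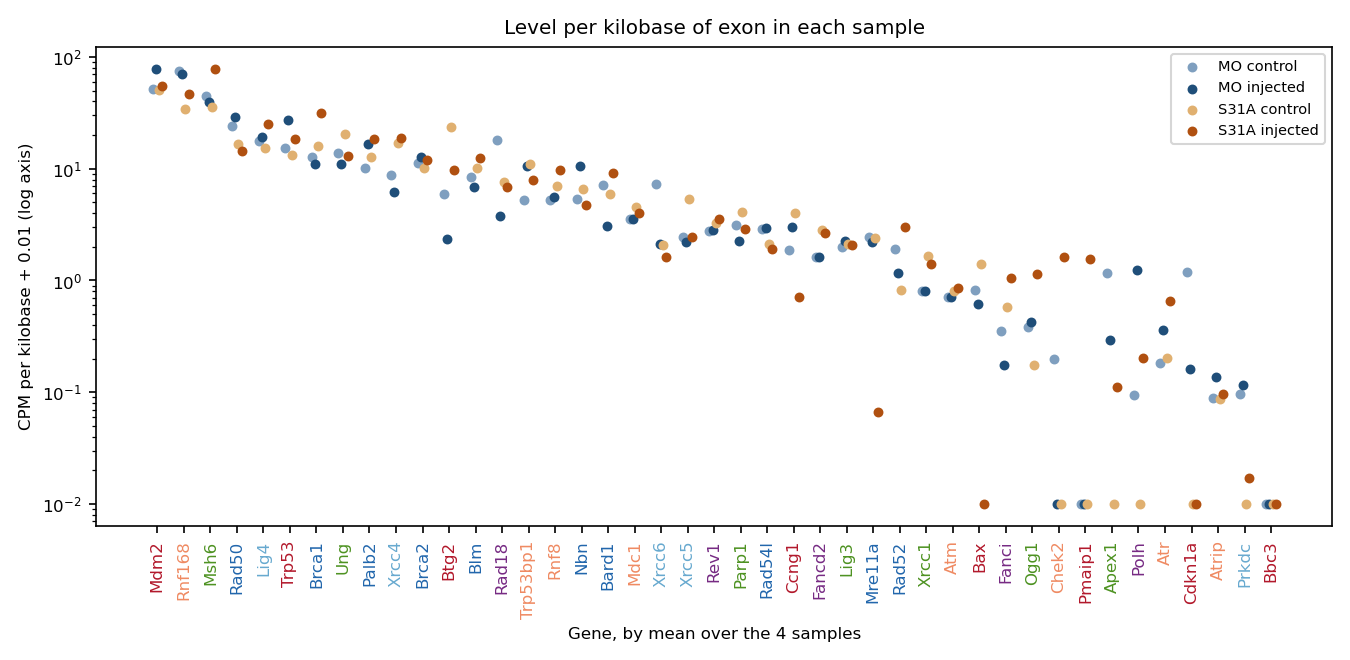
Level of each gene in CPM per kilobase (log axis, 0.01 added so that 0 can be drawn), one point per sample, ordered by the mean over the 4 samples. The order runs from Mdm2 at 58.8 to Bbc3 at 0, and points at 0.01 are samples with 0 counts.

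In the p53 response the regulators Mdm2 and Trp53 were abundant, while 4 effectors of the set were at or near 0. Other p53 targets were present: Btg2 and Ccng1 of the set are given below, and Rrm2b, a ribonucleotide reductase subunit from the wider list, stood at 267 to 540 CPM. Mdm2, the ligase that degrades p53, stood at 347 and 161 CPM for the MO control, 439 and 327 in the MO injected, 296 and 212 in the S31A control, and 275 and 280.5 in the S31A injected libraries. Its libraries overlapped in both experiments, with log2 ratios of 0.58 (95% interval 0.53 to 0.63) for MO and 0.14 (0.09 to 0.19) for S31A. Of the p53 effectors, Cdkn1a, the cell cycle inhibitor p21, was at 4.02 and 4.77 CPM in the MO control, at 0 and 1.31 in the MO injected, and at 0 in all 4 S31A libraries. Bax, a pore-forming death protein, did not exceed 4.22 CPM, and the death activator Pmaip1 (Noxa) was seen in a single library at 7.59 CPM. Bbc3, which encodes the death activator PUMA, had 0 counts in all 8 libraries. These 4 genes were under 10 CPM in every sample and enter none of the counts of differing genes at the 10 CPM filter. The S31A experiment had counts of Bax of 48 in the control and 0 in the injected sample, and those of Pmaip1 0 and 89. That made Bax at least 15.2-fold lower and Pmaip1 at least 31.2-fold higher, each from 1 library alone. Such folds set 0 counts at the floor and leave out counting error in the other sample; with it, the 95% limits were -3.57 for Bax and 4.64 for Pmaip1 on the log2 scale.

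Trp53 itself, the p53 gene, was even between libraries. It stood at 67.5 and 59.5 CPM for the MO control and 112 and 107 in the MO injected libraries, and at 64.2 and 42.8 against 58.7 and 93.7 in the S31A control and injected libraries. Both MO injected libraries lay above both MO controls, with a log2 ratio of 0.83 (0.72 to 0.94), short of 2-fold. Over the libraries the adjusted p of this difference by edgeR's quasi-likelihood test was 0.825 (Benjamini-Hochberg). That test passed 0 of all 8110 measured genes with MO, so this value does not show that Trp53 was unchanged. With S31A the libraries overlapped, with a log2 ratio of 0.48. Reads of Trp53 can also match its pseudogene Trp53-ps, and the handling of such reads is unknown from the sources used here. Trp53-ps stood at 25.8 and 36.5 CPM for the MO control and 85.7 and 42.6 in the MO injected libraries, with log2 ratios of 1.23 for MO and 0.80 for S31A, the same direction as Trp53 in both.

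Btg2, an antiproliferative p53 target, was the only member of its role group at least 2-fold apart in both experiments, lower each time. Its log2 ratio was -1.33 (-1.65 to -1.04) with MO, from 14.1 and 20.9 to 2.07 and 12.6 CPM, so the libraries did not overlap. With S31A it was -1.26 (-1.41 to -1.12), from 95.2 and 34.7 to 11.7 and 45.3 CPM, and the libraries overlapped. The S31A control was 1.98 above the MO control on the log2 scale, a larger gap than either injection showed. Without MO injected library 1 the MO value was -0.45, and it was -2.97 if MO injected library 2 was dropped. The S31A value was -0.35 with S31A control library 1 dropped, -0.545 without S31A injected library 1, -2.47 without S31A injected library 2, and -1.79 when leaving out S31A control library 2. Ccng1, which encodes cyclin G1, was carried by library 1 in every sample, at 11.2, 17.9, 28.7 and 4.35 CPM, while library 2 held at most 0.164 CPM. Its log2 ratio of -2.47 with S31A therefore compares a single pair of libraries, and it was -6.80 when S31A injected library 1 was dropped, -3.45 for S31A control library 2 and -1.68 for S31A injected library 2; without S31A control library 1 the gene was under 10 CPM.

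Among the damage signalling genes of the set, the kinases Atm, Atr and Chek2 were scarce and the chromatin ligase Rnf168 was abundant. The checkpoint kinase Chek1, from the wider list and not of the set, stood higher than any of these, at 798 to 1462 CPM over the libraries. Atm stood between 3.06 and 13.0 CPM over the libraries and under 10 CPM in every sample. Atr stood at 2.93 and 6.25 CPM for the MO control, 13.1 and 1.31 in the MO injected, 0.561 and 8.26 in the S31A control, and 25.9 and 1.71 in the S31A injected libraries. Its log2 ratio with S31A was 1.73 (1.42 to 2.09), but its libraries overlapped and the ratio rested on S31A injected library 1. It was 0.90 with S31A control library 1 dropped, 4.52 without S31A control library 2, and 2.46 when leaving out S31A injected library 2, and without S31A injected library 1 the gene was under 10 CPM. Atrip, the partner of ATR, did not exceed 2.07 CPM. Chek2, a checkpoint kinase downstream of ATM, had 9 counts in the MO control and 0 in the MO injected sample, 4.20-fold lower against the floor. With S31A it had 0 counts in the control and 101 in the injected sample, at least 35.4-fold higher, at 8.53 and 0.107 CPM in its libraries.

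Rnf168, a ubiquitin ligase that marks chromatin around breaks, was the second most abundant gene per kilobase. It stood at 316 and 391 CPM for the MO control, 216 and 456 in the MO injected, 127 and 175 in the S31A control, and 143 and 286 in the S31A injected libraries. Injected and control libraries overlapped in both experiments (log2 ratios -0.08 and 0.45), whereas both S31A controls lay below both MO controls (log2 ratio -1.13, interval -1.20 to -1.07). Rnf8, the ligase that acts before it, and Mdc1, the scaffold that recruits it, were within 2-fold in both experiments. Their log2 ratios were 0.08 and 0.47 for Rnf8 and 0.01 and -0.19 for Mdc1, in the MO and S31A experiments. Single libraries carried these values: Rnf8 was at -1.43 with MO without MO injected library 1 and at 1.14 with S31A without S31A control library 1, and Mdc1 ran from -0.80 to 0.96 with MO without MO control library 1 or 2.

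Trp53bp1 encodes 53BP1, which protects broken ends from resection, and was the only one of the 28 measured genes at least 2-fold higher with MO. It stood at 80.5 and 72.2 CPM for the MO control and 181 and 106 in the MO injected libraries, with no overlap and a log2 ratio of 1.01 (0.92 to 1.11). With S31A it stood at 147 and 159.7 CPM in the control and 131 and 87.5 in the injected libraries, with no overlap the other way (log2 ratio -0.45, -0.53 to -0.38). The MO value lay at the 2-fold threshold, and was 0.43 with MO injected library 1 dropped and 1.20 without MO injected library 2. The S31A control was 1.04 above the MO control (0.95 to 1.14), as large as the MO difference.

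Within the set, homologous recombination was the best represented role, with 10 of 10 genes measured. In the wider list 21 of its 26 genes were measured with MO, beside 20 of 25 for damage signalling. Brca1, which promotes end resection, stood at 131 and 80.4 CPM for the MO control, 99.0 and 84.0 in the MO injected, 117 and 153 in the S31A control, and 289 and 232 in the S31A injected libraries. Both S31A injected libraries lay above all 6 others, and the S31A log2 ratio was 0.96 (0.90 to 1.03), just short of 2-fold. Over the libraries its adjusted p was 0.802 by edgeR's quasi-likelihood test (unadjusted p = 0.0317) and 0.0191 by DESeq2. Its log2 ratio was 0.73 to 1.21 over the alternatives tried. With MO it was -0.20 and the libraries overlapped. Bard1, the obligate partner of BRCA1, stood at 54.8 and 22.4 CPM for the MO control and 23.6 and 7.97 in the MO injected libraries. It had a log2 ratio of -1.23 (-1.42 to -1.05) with overlapping libraries. That ratio was -0.34 without MO control library 1, -0.86 without MO injected library 2, -1.62 without MO control library 2, and -2.40 when leaving out MO injected library 1. With S31A it was 0.62.

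Brca2, a mediator of homologous recombination, was within 2-fold in both experiments over the summed libraries. It stood at 202 and 94.5 CPM for the MO control, 177 and 163 in the MO injected, 78.8 and 193 in the S31A control, and 159.7 and 163 in the S31A injected libraries. Its log2 ratios were 0.16 and 0.23, and the libraries overlapped in both experiments. With S31A the ratio was -0.23 without S31A control library 1 and 1.08 without library 2 of that sample, and with MO it was 0.90 without MO control library 1. Palb2, which bridges BRCA1 and BRCA2, had log2 ratios of 0.71 with MO, with libraries apart, and 0.52 with S31A. Blm, a helicase that undoes recombination intermediates, had -0.28 and 0.31.

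RNA of the 3 subunits of the MRN complex, which senses and trims broken ends, was present at unlike levels. Rad50 stood at 132 and 139 CPM for the MO control, 130.2 and 192 in the MO injected, 110.0 and 67.5 in the S31A control, and 97.4 and 50.2 in the S31A injected libraries. In the mean of the samples it was at 21.1 CPM per kilobase, against 6.79 for Nbn and 1.77 for Mre11a, the nuclease subunit. Rad50 overlapped in both experiments (log2 ratios 0.26 and -0.20). Nbn had a log2 ratio of 0.97 (0.74 to 1.20) with MO, with libraries apart at 27.6 and 25.2 against 13.4 and 15.1 CPM, and of -0.47 with S31A, with libraries overlapping. The S31A value was 0.95 without S31A control library 1 and -1.16 without library 2 of that sample. Mre11a was at 0 and 27.2 CPM in the S31A control libraries and at 0.597 and 0 in the injected libraries. Its log2 ratio of -5.05 (-6.72 to -4.33) thus came from S31A control library 2, without which it was no longer at 10 CPM; it was -6.81 without S31A injected library 1 and -4.33 without library 2. With MO it was -0.18, with -2.37 without MO injected library 1, and 0.36 when leaving out MO injected library 2.

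Rad52, an annealing factor that assists recombination, was low but separated in both experiments. It stood at 2.62 and 6.59 CPM in the S31A control and 19.9 and 13.6 in the S31A injected libraries, a log2 ratio of 1.86 (1.56 to 2.21). In the MO experiment it stood at 10.7 and 12.001 CPM in the control and 3.98 and 10.3 in the injected libraries, a log2 ratio of -0.71 (-1.04 to -0.39). The MO value was -1.49 without MO injected library 2, and -0.15 when leaving out MO injected library 1. The S31A value was 1.39 with S31A control library 1 dropped, 1.47 without S31A injected library 1, 2.03 without S31A injected library 2, and 2.70 when leaving out S31A control library 2. The S31A control lay below the MO control by a log2 ratio of -1.19. Rad54l, a motor that helps strand pairing, was within 2-fold in both (0.03 and -0.13), but with S31A was -1.09 without S31A injected library 2 and 0.50 without library 1.

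In end joining, the RNA counted for the ligation step was abundant and that for the DNA-dependent kinase step was not. The part of lost junction reads in this contrast was not tested. Lig4, the ligase, stood at 84.2 and 110.0 CPM for the MO control, 117 and 76.1 in the MO injected, 74.2 and 85.0 in the S31A control, and 80.8 and 189 in the S31A injected libraries. Its log2 ratios were 0.13 and 0.69 and its libraries overlapped in both experiments. Xrcc4, which holds LIG4 in place, had log2 ratios of -0.48 with MO, with libraries apart, and 0.12 with S31A. Prkdc, the catalytic subunit of the DNA-dependent kinase, stood at 1.96 and 0 CPM for the MO control, 0 and 3.38 in the MO injected, 0 and 0 in the S31A control, and 0.171 and 0 in the S31A injected libraries. At 0.0501 CPM per kilobase it was the lowest of the 43 genes after Bbc3. The Ku subunits that recruit this kinase to ends lay between these extremes, at 3.26 CPM per kilobase for Xrcc6 (Ku70) and 3.10 for Xrcc5 (Ku80).

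Xrcc6 was lower with MO, at 26.8 and 43.7 CPM in the control and 4.14 and 17.0 in the injected libraries. Its libraries did not overlap and its log2 ratio was -1.76 (-2.01 to -1.54). The ratio was -1.001 with MO injected library 1 dropped and -3.01 without MO injected library 2. With S31A Xrcc6 was under 10 CPM in both samples, at 1.87 and 16.001 CPM in the control and 4.69 and 10.1 in the injected libraries. The S31A control lay below the MO control by a log2 ratio of -1.81 (-2.06 to -1.58), again as large as the MO difference. Xrcc5 had a log2 ratio of -1.13 (-1.45 to -0.84) with S31A, with overlapping libraries at 18.9 and 8.62 against 10.6 and 0.535 CPM. It was -0.39 without S31A injected library 2, -4.41 without S31A injected library 1, and -1.56 when leaving out S31A control library 2, and without S31A control library 1 the gene was under 10 CPM.

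Of the excision repair genes, Msh6 and Ung were abundant, and the base excision enzymes Apex1 and Ogg1 were nearly absent. Msh6, a mismatch recognition subunit, stood at 229 and 152 CPM for the MO control, 191 and 139 in the MO injected, 104 and 202 in the S31A control, and 423 and 229 in the S31A injected libraries. Both S31A injected libraries lay above their controls, with a log2 ratio of 1.13 (1.07 to 1.19) and an adjusted p of 0.802 by edgeR's quasi-likelihood test between libraries. Dropping S31A injected library 1 gave 0.52, and the ratio was 0.77 without S31A control library 1, 1.42 without S31A injected library 2, and 1.74 when leaving out S31A control library 2. With MO it was -0.17 and the libraries overlapped. Ung, which removes uracil from DNA, was lower with S31A (log2 ratio -0.66, -0.76 to -0.57), at 79.9 and 56.6 against 85.4 and 134 CPM. Its MO value was -0.35.

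Apex1, the endonuclease that cuts abasic sites, did not exceed 1.96 CPM, and Ogg1, which removes oxidised guanine, did not exceed 3.96 CPM. Of the bases of Apex1, 61.7% also belong to Pip4p1 on the other strand, at a mean of 9.04 CPM, and the strand setting is unknown from the sources used here. Parp1, the sensor of strand breaks, had log2 ratios of -0.48 and -0.49 with MO and S31A. The nick ligase gene Lig3 had 0.17 and -0.02, and libraries overlapped for both genes in both experiments. Leaving out 1 library moved Lig3 to between -1.44 and 1.03 with MO (without MO injected library 2 or 1). With S31A Lig3 ran from -0.996 to 1.62 (without S31A injected library 1 or S31A control library 2), and Parp1 with MO from -1.26 to 0.44 (without MO control library 1 or 2). Of the bases of Lig3, 25.1% also belong to Rffl on the other strand, at a mean of 55.6 CPM. Xrcc1, the scaffold for LIG3, was under 10 CPM in every sample.

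Rad18, a ubiquitin ligase that switches stalled forks to lesion bypass, had the lowest ratio of the measured genes with MO. It stood at 99.0 and 119 CPM for the MO control and 3.29 and 47.4 in the MO injected libraries, without overlap, a log2 ratio of -2.26 (-2.41 to -2.12). The ratio was -1.20 with MO injected library 1 dropped and -5.00 without MO injected library 2. In the S31A experiment it stood at 17.2 and 68.0 against 60.9 and 11.7 CPM, so the libraries overlapped (log2 ratio -0.15). That ratio was -1.93 without S31A injected library 1 and 1.23 without S31A control library 2. The S31A control was below the MO control by a log2 ratio of -1.25 (-1.36 to -1.13). Of the bypass polymerases, Rev1 had log2 ratios of 0.04 and 0.11. Leaving out 1 library gave -0.55 to 0.62 with MO and -0.67 to 2.46 with S31A, the last without S31A control library 2. As 26.6% of its bases also belong to Eif5b on the other strand, at a mean of 392 CPM, its counts are uncertain.

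Polh, the polymerase that copies past ultraviolet lesions, was under 10 CPM in every sample. Its MO injected libraries stood at 4.37 and 11.5 CPM against 0.652 and 0.329 CPM for the control, a log2 ratio of 3.60 (2.84 to 5.09) that rests on 8 control counts. In the S31A experiment it had 0 counts in the control and 24 in the injected sample (at least 8.41-fold higher), in 1 library. Of the crosslink repair pair, Fancd2 had log2 ratios of 0.01 and -0.08, the first of which was -3.11 without MO injected library 1 and up to 0.76 without others, and Fanci was under 10 CPM in every sample.

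**Figure D3:**
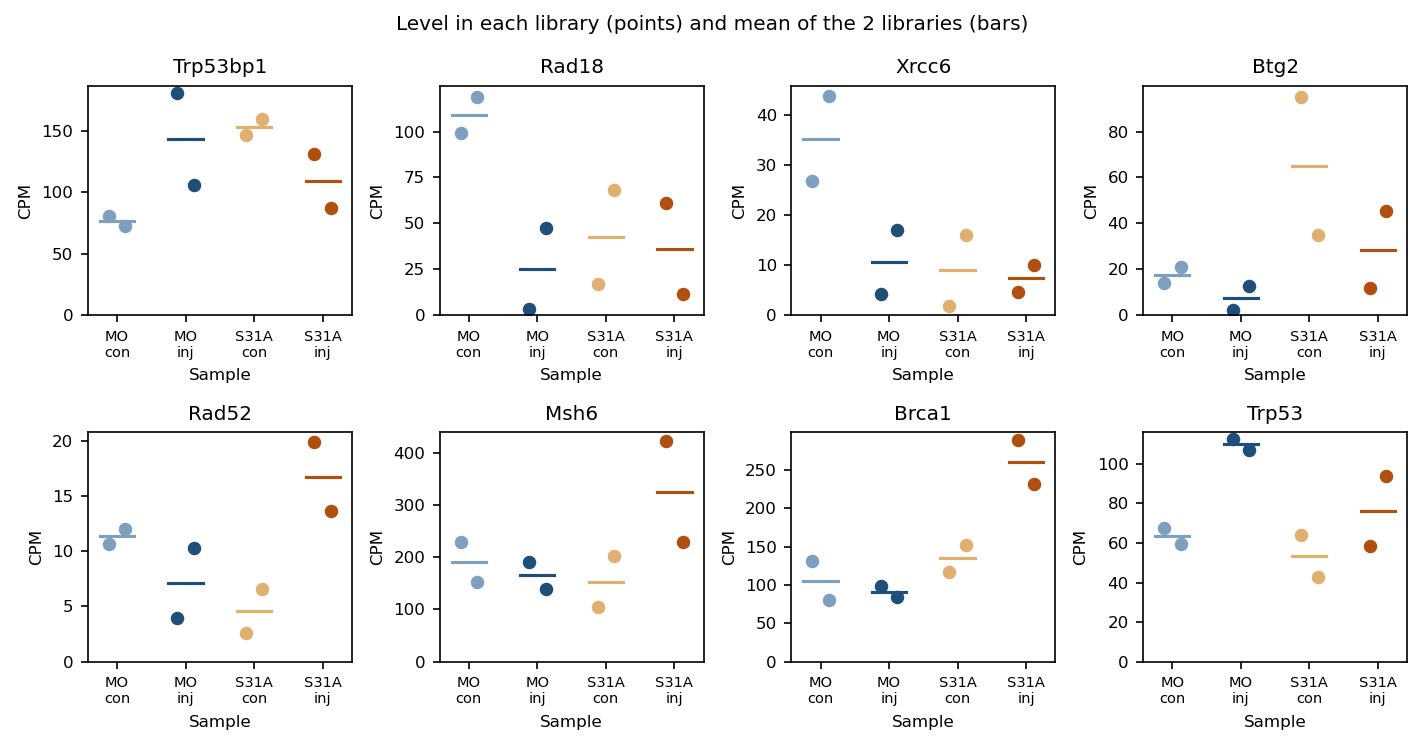
CPM of 8 of the genes described above in each of the 8 libraries (points), with the mean of the 2 libraries of a sample as a bar; axes start at 0 and differ between panels. Rad18 and Xrcc6 were highest in both MO control libraries, and Brca1 in both S31A injected libraries.

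The genes that differed by 2-fold with libraries apart lie, in mm10 coordinates from the deposited table, at chr2:121193281-121271407 (Trp53bp1), chr1:134075170-134079120 (Btg2), chr15:81987835-82040085 (Xrcc6), chr6:112619850-112696686 (Rad18), chr6:119902698-119922828 (Rad52) and chr17:87975062-87990892 (Msh6). Of the bases of Trp53bp1, 15.0% also belong to Tubgcp4 on the other strand, at a mean of 0.767 CPM, and of those of Xrcc6 7.69% to Desi1, at 21.4 CPM.

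Counted over the set, 28 genes were measured in the MO experiment. Of these, 1 was at least 2-fold higher and 4 were at least 2-fold lower (Btg2, Bard1, Xrcc6 and Rad18), against 11.3% and 12.5% of all 8110 measured genes. With the further demand that libraries did not overlap, these were 1 and 3 genes, against 7.29% and 10.4%. Libraries were apart at any size for 9 of the 28, against 40.5% (4 higher against 19.2%, and 5 lower against 21.3%). The median log2 ratio of the measured genes was 0.01, beside 0.03 for all genes. These shares are near the background or below it, so they give no result about the set.

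In the S31A experiment 29 genes were measured. Of these, 3 were at least 2-fold higher (Atr, Rad52 and Msh6) and 4 at least 2-fold lower (Ccng1, Btg2, Mre11a and Xrcc5), against 14.1% and 16.2% of all 8191 measured genes. With libraries apart these were 2 and 0 genes, against 9.19% and 11.4%, and libraries were apart at any size for 6 of the 29, against 39.5% (3 higher against 19.8%, and 3 lower against 19.8%). The median was 0.11, beside 0.02 for all genes. By role, the median for homologous recombination was 0.27 with S31A and -0.07 with MO over 10 genes. The p53 response had -0.56 and 0.63 over 4 genes, and the remaining roles had 3 to 5 measured genes each. In the wider list, with S31A and MO, the medians were -0.03 and -0.39 for homologous recombination and 0.05 and 0.20 for the p53 response.

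Ratios near 0 often rested on libraries that differed. Of the 23 genes within 2-fold with MO, 10 passed 2-fold and 17 turned sign when some library was left out. With S31A these were 13 and 13 of 22. A value near 0 here therefore does not show that a gene was the same in both groups. The same counts were not made over all measured genes, so they describe no trait of this set.

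**Figure D4:**
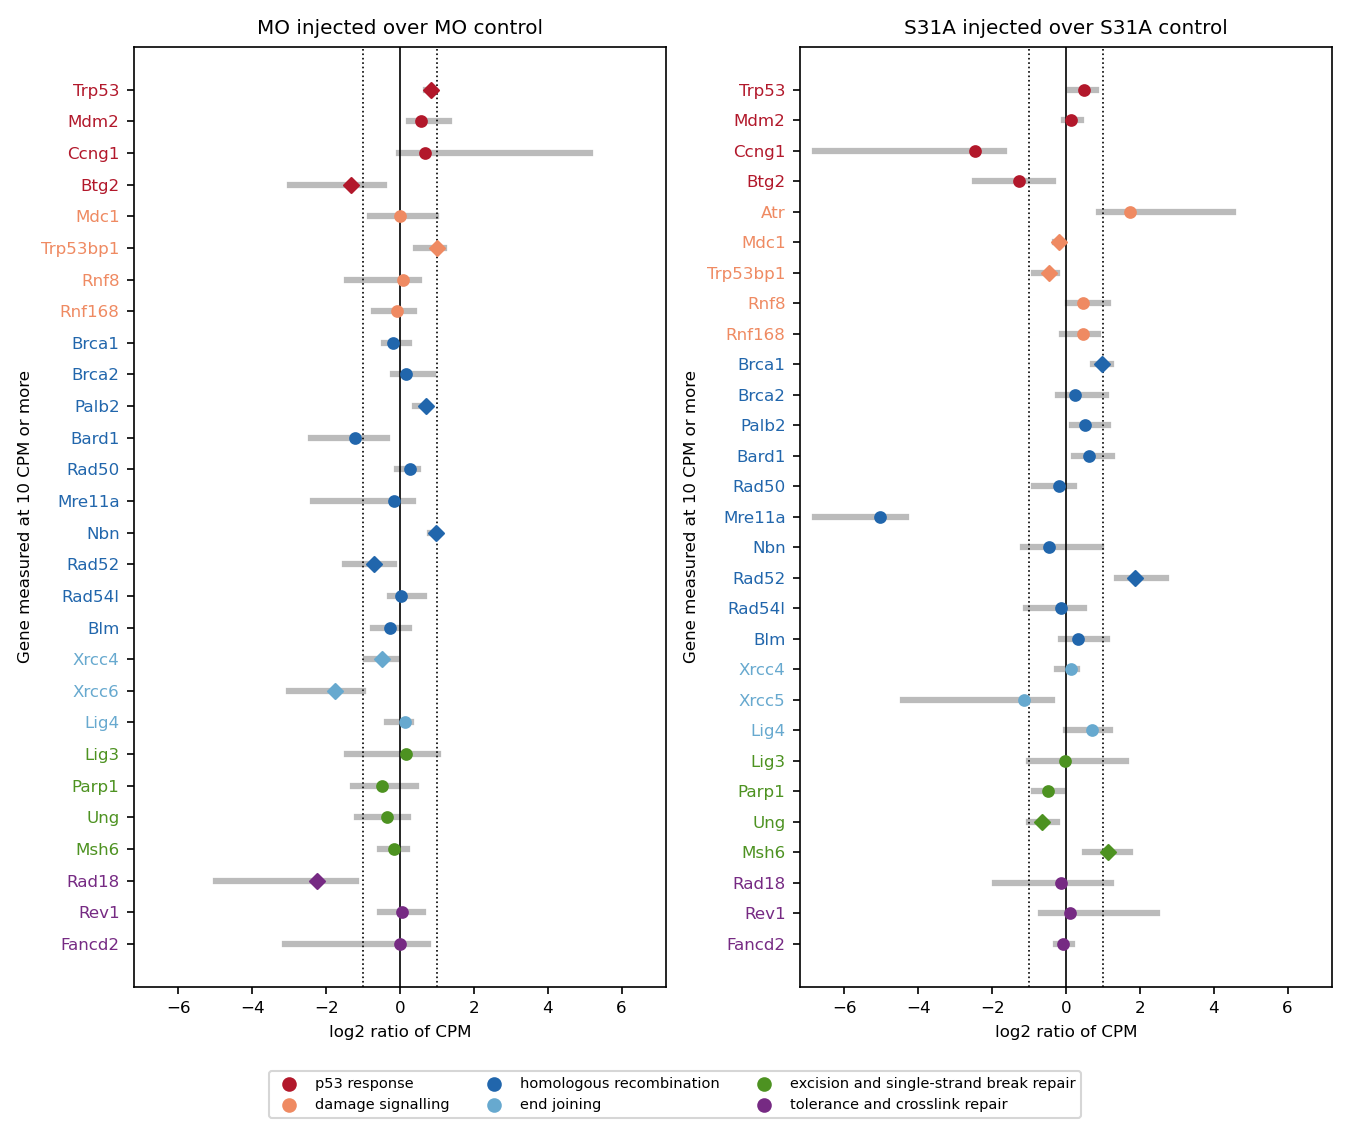
Log2 ratio of each measured gene, injected over control, for MO (left) and S31A (right), with genes coloured by role. Grey bars span the values over all alternatives tried, diamonds mark genes whose injected libraries did not overlap the controls, and dotted lines mark 2-fold; the widest bars belong to Ccng1 in both panels, Xrcc5 with S31A, and Fancd2 and Rad18 with MO.

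No gene of the set had an adjusted p under 0.05 by edgeR's quasi-likelihood test between libraries, whose p-values measure only the spread between the libraries of a sample. With MO, 0 of 28 had an adjusted p under 0.05 (0 of all 8110 genes, of which 429 had an unadjusted p under 0.05). Even H3f3b, with a log2 ratio of -8.34 with MO, did not pass. An adjusted p above 0.05 here therefore does not show that a gene was unchanged. At an unadjusted p under 0.05 there were 0 of the 28, and DESeq2 passed 0, where it passed 0.666% of all genes. With S31A, 0 of 29 passed (2 of all 8191 genes, 0.0244%), and Brca1 alone had an unadjusted p under 0.05, against 490 of all 8191 genes. DESeq2 passed 1, again Brca1, where it passed 7.34% of all genes. The controls also differed from each other. In the S31A control 4 of 29 genes stood at least 2-fold above the MO control and 4 below, against 13.6% and 16.2% of all 8266 measured genes, and libraries were apart for 10, against 46.4% (5 higher against 21.2%, and 5 lower against 25.2%). Both conditions together held for 2 higher genes, against 9.67%, and 4 lower genes, against 14.5%. By edgeR 0 of the 29 had an adjusted p under 0.05 and 3 an unadjusted one, against 0 and 818 of all 8266 genes. DESeq2 called Rnf168 there, among 4.32% of all genes. This comparison shares its control samples with both experiments.

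For the repair genes, the share at least 2-fold apart was higher between the libraries of each sample than between samples. Over all genes this did not hold for the MO control, at 24.7%, against 30.3% between the S31A samples. Samples were summed over their libraries for this and so hold more counts than single libraries. Library 1 and library 2 were at least 2-fold apart for 10 of 29 genes in the MO control, against 24.7% of all genes, and for 15 of 31 in the MO injected sample, against 39.8%. In the S31A control this held for 14 of 29, against 40.4%, and in the S31A injected sample for 9 of 29, against 41% of all genes. These shares lay on both sides of those of all genes, over 29 to 31 repair genes. They give no result about the set. Some genes reached 10 CPM in a library and had 0 counts in its partner. These were 0 of 29 in the MO control, against 0.735% of all genes, and 1 of 31 in the MO injected sample, against 3.61%. In the S31A control they were 2 of 29, against 8.39%, and in the S31A injected sample 0 of 29, against 8.2%. The genes with the widest gaps were Ccng1 and Mre11a, at 7.32 and 7.24 on the log2 scale in the S31A control. Those with the smallest largest gap among the abundant genes were Trp53 (0.67) and Brca1 (0.70).

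**Figure D5:**
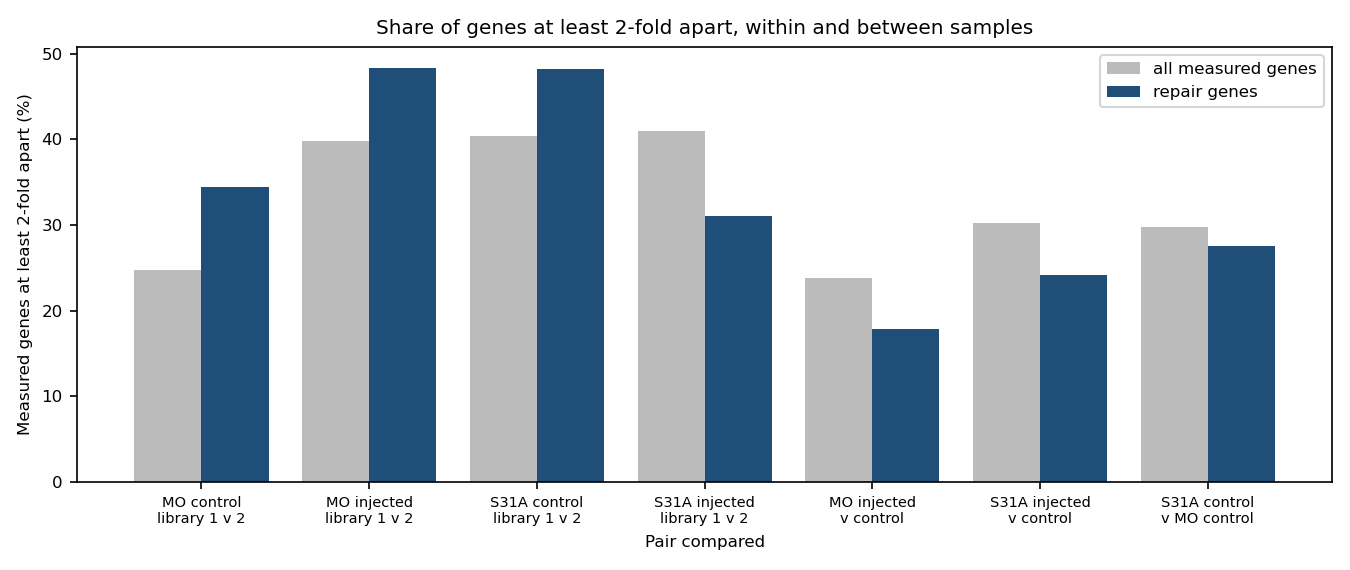
Percent of measured genes at least 2-fold apart, for all genes (grey) and for the repair genes (blue), between the 2 libraries of each sample and between summed samples. For the repair genes the bars within samples reach 31.03% to 48.4%, and those between samples 17.9% to 27.6%; summed samples hold more counts than single libraries.

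Signs of the ratios were compared between the experiments, which share no sample. Of 27 genes measured in both, 12 had ratios of the same sign (44.4%), against 55.0% of 7320 genes. Over so few genes this share is near that of all genes, so it gives no result about the set. Both ratios were above 0 for 7 and below 0 for 5, while 8 were above 0 with MO alone and 7 with S31A alone.

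The wider pathway was described with 164 other repair and p53 genes. Of these, 107 were measured with MO, with 8 at least 2-fold higher and 15 lower, against 11.3% and 12.5% of all genes, and a median log2 ratio of 0.07. With S31A 106 were measured, with 16 higher and 19 lower, against 14.1% and 16.2% of all genes, and a median of 0.22. These counts are near the background. The counts by role that follow, each over 8 to 22 genes, are a description to be read against the same shares. Ratios without single libraries are not given for these genes, and some of those named had a library near 0 CPM. In the p53 response, 1 of 14 measured genes was higher with MO and 1 lower. These were Casp9, the caspase that starts the mitochondrial death pathway (log2 ratio 4.18, interval 3.63 to 5.07), and the nuclease gene Aen (-1.10). With S31A, 4 of 15 were higher and 1 lower, including Aen (2.56) and the apoptosome gene Apaf1 (2.74) on the higher side. The lower gene was Sesn2 (-6.74, interval -13.60 to -5.80), at 30.4 and 0.352 CPM in the S31A control libraries and with 1 count after injection. Aen is a p53-activated gene, at 18.3 and 16.1 CPM in the MO control and 5.97 and 10.3 in the MO injected libraries. In the S31A experiment it stood at 6.73 and 3.17 CPM in the control and 26.9 and 32.3 in the injected libraries, so it was apart in opposite directions.

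Among other damage signalling genes, 1 of 20 was higher with MO and 2 lower, among them Hus1, part of the sliding clamp that activates ATR (1.35), and Wee1, an inhibitor of mitotic entry (-1.76). With S31A 2 were higher, the chromatin kinase gene Tlk1 (2.63) and the clamp gene Rad1 (2.07), and 4 were lower. Of these, Uimc1, which recruits BRCA1 to ubiquitin, had 288 counts in the S31A control and 0 in the injected sample, at least 91.3-fold lower. In homologous recombination 4 of 21 were lower with MO and 0 higher, including the helicase gene Brip1 (-1.53). With S31A 6 of 20 were lower and 1 higher, including Sem1 (-1.21) and Sfr1 (-1.09). Rad51c was lower in both experiments with libraries apart, at -1.01 with MO and -1.02 with S31A.

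In end joining 1 of 9 was higher and 1 lower with MO, and 2 of 8 higher and 3 lower with S31A. Poll, a gap-filling polymerase, was higher with MO (1.52), and Nhej1, the XLF factor (-3.15), and Tdp2 (-2.79) were lower with S31A. In excision repair, 2 of 22 were higher and 4 lower with MO, with Parg, which removes poly(ADP-ribose), at 1.67, the helicase gene Ercc3 at -3.18 and the glycosylase gene Nthl1 at -3.14. With S31A 2 were higher and 3 lower, with Cetn2 at 2.42, Apex2 at 1.35 and Mbd4 at -1.64. Cetn2 stood at 7.66 and 0.0879 CPM in the S31A control and 29.2 and 9.31 in the injected libraries. In tolerance and crosslink repair, 3 of 21 were higher and 3 lower with MO, among them Fancc (1.20), Ube2t (-1.99) and Hltf (-1.28). With S31A 5 were higher and 2 lower, among them Hltf (1.94), Wdr48 (1.87) and Mad2l2 (-1.95). Hltf, a ligase and translocase at stalled forks, was thus lower with MO and higher with S31A, with libraries apart in both.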

How the data were processed

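The authors deposited un-normalized whole-number counts for each gene in 8 columns, beside a gene length in bases, per the file headers. Per the submitters' processing notes, the tools were FastQC, Bowtie2, featureCounts and DESeq2, and the build was mm10. Tool versions, annotation, strandedness and how multiply matching reads were treated: not given in the sources used here. Total RNA was used and cDNA was amplified by PCR, per the labels' protocols. Without molecular identifiers, PCR copies are not separate molecules, and intervals and floors therefore hold counting error alone. Reads over exon junctions can be lost with an aligner that does not split reads, and intronless copies can take them.

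Columns were matched to samples by title, with 0 count columns left out. The counts of the 2 libraries of a sample were added and scaled by TMM in edgeR 4.0.16 under R 4.3.3. Library CPM used TMM factors over the 8 libraries. Log2 ratios used a prior count of 2, over genes that reached 10 CPM in either sample of a pair, which are called measured. Genes at least 2-fold apart were counted. The 95% intervals are exact (Clopper-Pearson, on shares of counts). Where a sample had 0 counts, the fold was computed against 3 counts in its summed libraries. As each group is a single sample, groups were not tested against each other. Between libraries, edgeR's glmQLFit and glmQLFTest (quasi-likelihood, adjusted by Benjamini-Hochberg over all measured genes) and DESeq2 1.42.0 were applied, and the gap between the S31A and MO ratios was tested as an interaction term in edgeR. The labels do not say whether libraries came from separate pools, so these p-values measure only the spread between them. The steps were tested on simulated counts. Of the 43 genes, 42 had the same coordinates in GENCODE M21, all of them protein-coding there; Xrcc5 did not.

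The members, the role lists and the 164 other genes were chosen with earlier results of these data known. Values in every library are given for genes at least 2-fold apart with libraries not overlapping, for the 6 highest per kilobase, and for Trp53, Cdkn1a, Mdm2, Atm, Atr, Brca1, Brca2 and Prkdc. For Atm only the range over libraries is printed. Of the other genes, up to 3 per role and experiment were named by the largest absolute ratio among those at least 2-fold apart with libraries not overlapping. Some genes that this rule names are not reported here. Nbn, Bard1, Mre11a, Xrcc5, Ccng1 and the genes under 10 CPM were given values per library or bounds after their values were seen, and the 4 promoter windows were chosen likewise. Promoter windows are from RefSeq (GRCm38.p6), and 5 genes had no window matched. Alternatives were other scaling, filters, prior counts, leaving out mitochondrially encoded genes, equal weights for libraries and leaving out each library.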

Additional observations from a re-analysis of the deposited data

Results flagged for a closer look

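Genes of the set whose libraries did not overlap in opposite directions in the 2 experiments were looked for, and 2 of the 27 genes measured in both had this pattern (7.41%, against 6.52% of all 7320 genes). Trp53bp1 was higher with MO (log2 ratio 1.01) and lower with S31A (-0.45), so the S31A ratio minus the MO ratio was -1.47. Rad52 was lower with MO (-0.71) and higher with S31A (1.86), a difference of 2.56. By edgeR's quasi-likelihood test of that difference over the 8 libraries, the adjusted p was 0.747 for Trp53bp1 and 0.930 for Rad52. Of the 30 genes of the set tested, 0 passed and 1 had an unadjusted p under 0.05, against 3 and 581 of all 8981 genes tested. DESeq2 was not run on this difference. With 1 sample per group, a difference between the experiments was not tested over samples.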

How the results depend on the processing

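Over the alternatives tried, no gene of the set that was at least 2-fold apart changed sign while it stayed measured. The scaling and weighting moved counts slightly. The 1 gene at least 2-fold higher with MO became 0 with DESeq2 size factors, with library totals alone and with the mean of library CPM, and 2 at a filter of 1 CPM or with no filter. Its range was 1 to 3 when a library was left out. The 4 lower genes became 1 at 50 CPM and 7 with no filter, and 4 to 7 without single libraries. With S31A, the 3 higher genes became 7 at 1 CPM, 1 at 50 CPM and 9 with no filter, and 2 to 10 without single libraries. The most, 10, came without S31A control library 2. The 4 lower genes became 1 at 50 CPM, and 2 to 5 without single libraries. Between the controls, the 4 higher genes became 2 with library totals alone and at 50 CPM, and 3 to 5 without single libraries. The 4 lower genes became 7 at 1 CPM, 2 at 50 CPM and 9 with no filter, and 2 to 8 without single libraries. Medians were -0.1706 with the mean of library CPM for MO, and -0.1693 to -0.0455 without single libraries. For S31A the median was 0.379 at 50 CPM, and -0.0776 to 0.2261 without single libraries. Between the controls it was 0.1059 at 50 CPM, 0.0702 with no filter and 0.0428 with the mean of library CPM, and -0.0083 to 0.3124 without single libraries. Other filters test other genes; the cause of the other moves was not tested.

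Fits with a library left out keep a lone library in 1 sample, which is assumed to vary like the other sample, so genes passing them are not counted here. Over all libraries, DESeq2 called 0 genes of the set with MO, against 0.666% of all genes, and 1 with S31A, against 7.34%. The deposited column headers number the libraries, the sample titles do not, and same-numbered libraries did not deviate together (correlation over genes of 0.07 with MO and -0.01 with S31A). With the library number as a replicate block, 0 genes of the set passed in either experiment. At this depth, 0 counts in a summed sample allow a level of up to 0.136 to 0.190 CPM.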
